A study of Mus musculus with 3 samples.

Results

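Chemoattractant receptors are the seven-transmembrane proteins by which monocytes and neutrophils sense infection and tissue damage. The genes described are 7 of the 21851 mouse protein-coding genes that have an annotated protein-coding transcription start site (TSS). They were chosen by name and role, with earlier results of these data known. C3ar1 encodes the receptor for the complement fragment C3a, C5ar1 encodes the receptor for C5a, and C5ar2 encodes a further C5a receptor that does not couple to G proteins. Fpr1 and Fpr2 encode formyl peptide receptors, Ptafr the receptor for platelet-activating factor (PAF), and Ltb4r1 the high-affinity receptor for leukotriene B4. As background, complement fragments are cut from plasma proteins at sites of activation, formyl peptides come from bacteria and from damaged mitochondria, and PAF and leukotriene B4 are lipids made by activated leukocytes. Most of these receptors signal through inhibitory G proteins to phosphoinositide 3-kinase gamma, phospholipase C beta and Rac, which drive migration and the oxidative burst, and arrestins and receptor kinases then switch them off.

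Open chromatin was measured by DNase-seq, in which the enzyme DNase I cuts DNA where it is accessible, in 3 libraries of primary monocytes. The cells came from adult virgin female B6CASTF1/J mice aged 2 months, the F1 hybrid of the C57BL/6J and CAST/EiJ strains, and no library was treated or genetically modified as far as the labels say. The labels number the libraries as biological replicates 1, 2 and 4 and give 1 donor identifier for all of them. They do not say whether separate animals were used, so the spread between libraries may be technical. All libraries form 1 group, so no test between conditions was possible, and every comparison with other genes is a description.

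The libraries held 54046 peaks in replicate 1, 42657 in replicate 2 and 48980 in replicate 4, with median heights of 0.932, 0.975 and 1.14 in deposited units. Marker genes were read by the presence of a peak within 1 kb of a TSS. Of all protein-coding genes, 50.5% had such a promoter peak in each of the 3 libraries. Of 10 monocyte markers, 7 had such a promoter peak in each of the 3 libraries, while Ccr2 had none in any. Such peaks were present in all 3 for 3 of 12 neutrophil markers, 1 of 7 T cell markers, 0 of 5 B cell markers, 0 of 4 natural killer cell markers, 0 of 3 erythroid markers that could be matched, 1 of 4 mast cell and basophil markers and 0 of 4 hepatocyte markers. The neutrophil markers with a promoter peak in all 3 libraries were Csf3r, S100a8 and Mmp8. Cxcr2 had one in replicate 4 only and Camp in replicate 1 only. The other 7, Ly6g, S100a9, Mmp9, Ltf, Elane, Mpo and Retnlg, had no promoter peak in any library. These 7 genes did have distal peaks within 50 kb. In replicates 1, 2 and 4 there were 6, 4 and 4 at Ly6g, 6, 6 and 8 at Elane, 13, 12 and 15 at Mpo and 7, 7 and 7 at Ltf. There were 2, 2 and 2 at S100a9, 9, 7 and 9 at Mmp9 and 1, 0 and 1 at Retnlg. The part of other cells in the regions below was not tested.

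The sequences that carry the main observations are given first, because several of these genes had their peaks at an intron or a flank and not at the start site. Each is the plus strand of the mm10 reference, which is C57BL/6J sequence and does not show the CAST/EiJ allele. Capitals mark a footprint, a short stretch protected from cleavage, that was called in all 3 libraries. The C3ar1 region is shown although no footprint was shared there. For Ptafr, the promoter is represented by its shared footprint with a short flank on either side.
C5ar2 promoter, chr7:16244155-16244400: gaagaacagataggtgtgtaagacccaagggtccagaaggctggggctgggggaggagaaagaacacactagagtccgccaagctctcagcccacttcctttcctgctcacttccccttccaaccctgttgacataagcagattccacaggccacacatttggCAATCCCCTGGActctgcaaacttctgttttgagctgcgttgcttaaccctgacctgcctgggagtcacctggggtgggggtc
C5ar1 intron, chr7:16257861-16258160: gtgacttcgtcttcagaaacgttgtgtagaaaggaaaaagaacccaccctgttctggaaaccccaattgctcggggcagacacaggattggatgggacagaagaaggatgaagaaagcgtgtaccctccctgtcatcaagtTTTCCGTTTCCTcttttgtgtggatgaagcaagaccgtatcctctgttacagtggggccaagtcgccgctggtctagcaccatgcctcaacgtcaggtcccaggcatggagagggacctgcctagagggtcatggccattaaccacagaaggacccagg
C5ar1 upstream region, chr7:16263101-16263280: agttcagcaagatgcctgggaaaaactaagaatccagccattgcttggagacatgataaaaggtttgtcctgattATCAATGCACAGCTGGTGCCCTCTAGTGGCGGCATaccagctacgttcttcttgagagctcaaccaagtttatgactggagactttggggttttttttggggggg
C3ar1 intron, chr6:122852761-122853014: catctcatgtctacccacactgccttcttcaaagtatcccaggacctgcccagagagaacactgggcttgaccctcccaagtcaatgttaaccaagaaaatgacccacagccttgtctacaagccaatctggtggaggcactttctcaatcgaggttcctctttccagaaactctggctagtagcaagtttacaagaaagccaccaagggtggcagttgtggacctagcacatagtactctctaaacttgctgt
Region downstream of Fpr2, chr17:17910112-17910411: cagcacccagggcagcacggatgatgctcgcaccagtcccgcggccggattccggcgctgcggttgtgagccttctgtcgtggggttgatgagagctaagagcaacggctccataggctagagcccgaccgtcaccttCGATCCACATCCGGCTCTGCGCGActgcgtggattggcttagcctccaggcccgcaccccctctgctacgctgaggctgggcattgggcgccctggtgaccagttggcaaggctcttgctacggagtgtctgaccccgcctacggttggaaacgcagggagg
Ptafr promoter footprint, chr4:132564175-132564201: ctgttTCCTCACTTCTGCAATTgccag
Region downstream of Ptafr, chr4:132593001-132593220: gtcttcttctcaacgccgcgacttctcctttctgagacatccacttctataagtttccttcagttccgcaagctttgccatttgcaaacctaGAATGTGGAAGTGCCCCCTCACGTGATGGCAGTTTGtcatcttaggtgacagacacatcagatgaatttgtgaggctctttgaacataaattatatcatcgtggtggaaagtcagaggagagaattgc

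Only Ptafr and C5ar2 had a promoter peak in all 3 libraries, that is 2 of the 7 receptor genes, against 11029 of 21851 protein-coding genes (50.5%). C5ar1 had a promoter peak in replicates 1 and 4 but not in replicate 2, so that 3 of 7 had one without replicate 2. C3ar1, Fpr1, Fpr2 and Ltb4r1, that is 4 of 7, had none in any library, against 9630 of all protein-coding genes (44.1%). A promoter peak is one that comes within 1 kb of a coding start site of the gene, and its height is the density of cleavage that the authors gave it. With 7 genes these shares are a description and not a departure from the background.

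The Ptafr promoter peak was the tallest of the group. It reached 3.30 in replicate 1, 2.31 in replicate 2 and 3.38 in replicate 4 (mean 2.997 ± 0.593, SD, n = 3), at chr4:132564041-132564280, over the single TSS at position 132564067 and into its 5′ untranslated exon. That height was above 85.9%, 78.6% and 80.9% of all peaks in replicates 1, 2 and 4, but above only 46.5%, 38.2% and 38.4% of the promoter peaks of other genes. It was below the median promoter height in every library, which was 3.90, 3.24 and 4.94 in replicates 1, 2 and 4.

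C5ar2 was open just upstream of its outer TSS, at chr7:16244141-16244400, with heights of 1.30, 0.913 and 1.51 in replicates 1, 2 and 4 (mean 1.24 ± 0.303, SD, n = 3). This peak was lower than most promoters, above 19.9%, 12.8% and 19.0% of promoter peaks. The C5ar1 promoter peak was lower again, at 0.693 in replicate 1 and 0.817 in replicate 4, with no peak in replicate 2. It covered chr7:16259185-16259337, in the 5′ untranslated exon, and ended 1 bp from the inner of the 2 annotated start sites.

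The deposited track of the false discovery rate (FDR) of cleavage lists only positions with an FDR under 0.05. A position just above that limit is absent from it, so a blank window does not show how near it came to a call. The windows of C3ar1, Fpr1, Fpr2 and Ltb4r1 held no listed position in any library, and neither did that of C5ar1 in replicate 2. Such blank windows are usual for genes without a promoter peak: only 2.36%, 2.30% and 1.92% of them had a listed position in replicates 1, 2 and 4. Every gene with a promoter peak had one (11855, 11398 and 11563 genes). A blank window therefore adds little to the absence of a peak. Within the C5ar1 promoter peak the lowest FDR was 0.0228 in replicate 1 and 0.00311 in replicate 4, so this call stood near the limit in replicate 1. Within the C5ar2 peak it was 7.03e-07, 0.000286 and 8.01e-09, and within the Ptafr peak 2.43e-28, 2.41e-16 and 4.60e-17. In replicates 1 and 4 the order from Ptafr to C5ar2 to C5ar1 was the same by FDR as by height; in replicate 2, where C5ar1 had no peak, Ptafr preceded C5ar2 by both.

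**Figure D1:**
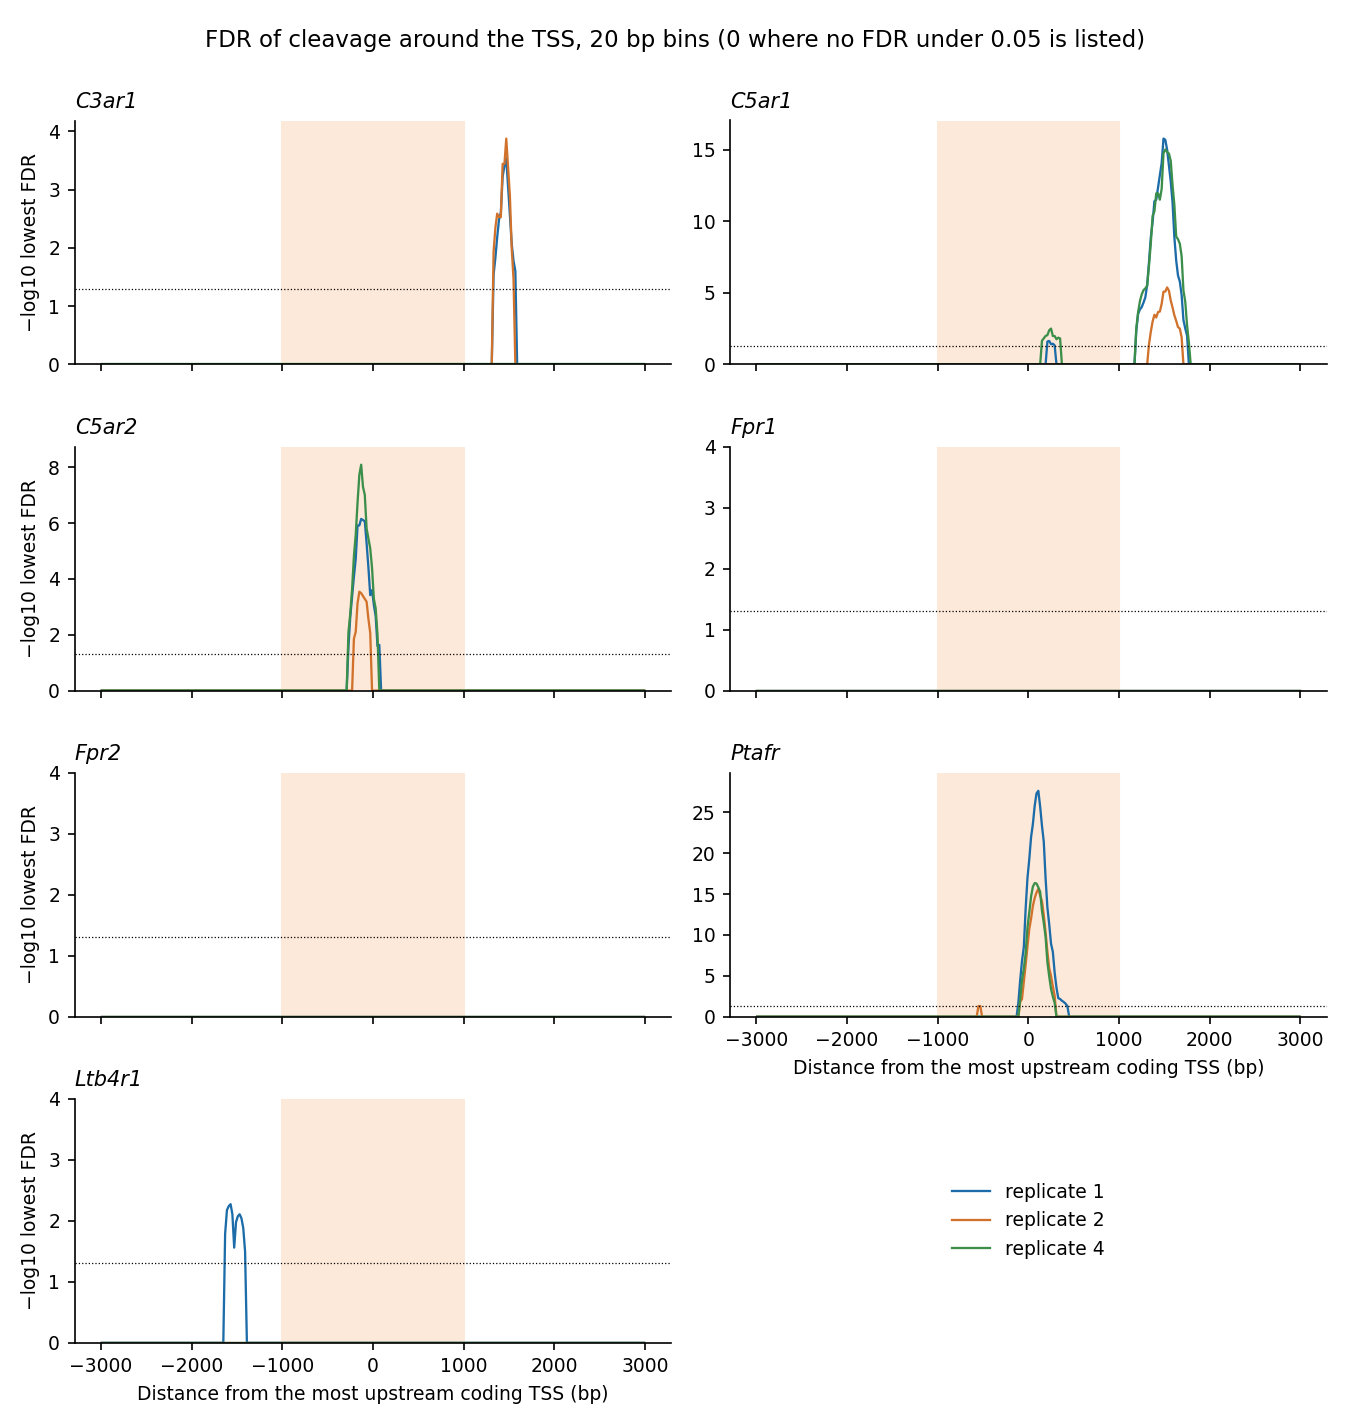
FDR of cleavage within 3 kb of the most upstream coding TSS of each gene, given as −log10 of the lowest value in bins of 20 bp (vertical axis, scaled per gene), with 1 line per library; shading marks 1 kb either side of that TSS and the dotted line an FDR of 0.05. C5ar2 and Ptafr rise inside the shading in all 3 libraries, C5ar1 rises mainly outside it, C3ar1 only outside it in replicates 1 and 2, Ltb4r1 only outside it in replicate 1, and Fpr1 and Fpr2 stay at 0. A value of 0 marks a bin with no FDR listed under 0.05.

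The start sites of all 7 genes were poor in CpG dinucleotides, a sequence property that no peak entered. The ratio of observed to expected CpG within 500 bp of the first TSS was 0.198 at C3ar1, 0.179 at Ptafr, 0.174 at C5ar2, 0.146 at C5ar1, 0.136 at Ltb4r1, 0.0753 at Fpr1 and 0.0533 at Fpr2. The median was 0.571 over all protein-coding genes, 0.744 over genes with a promoter peak in all 3 libraries and 0.222 over genes with none. The receptor genes therefore sat in the low mode of the distribution, with Fpr2 above 2.65% and C3ar1 above 22.0% of all genes. Among the 4801 genes whose ratio was no higher than that of C3ar1, 337 (7.02%) had a promoter peak in all 3 libraries. Of these 4801, 1319 are olfactory or vomeronasal receptor genes by symbol; among the other 3482 genes the share was 9.59%. Ptafr and C5ar2 belong to that minority of open CpG-poor promoters.

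**Figure D2:**
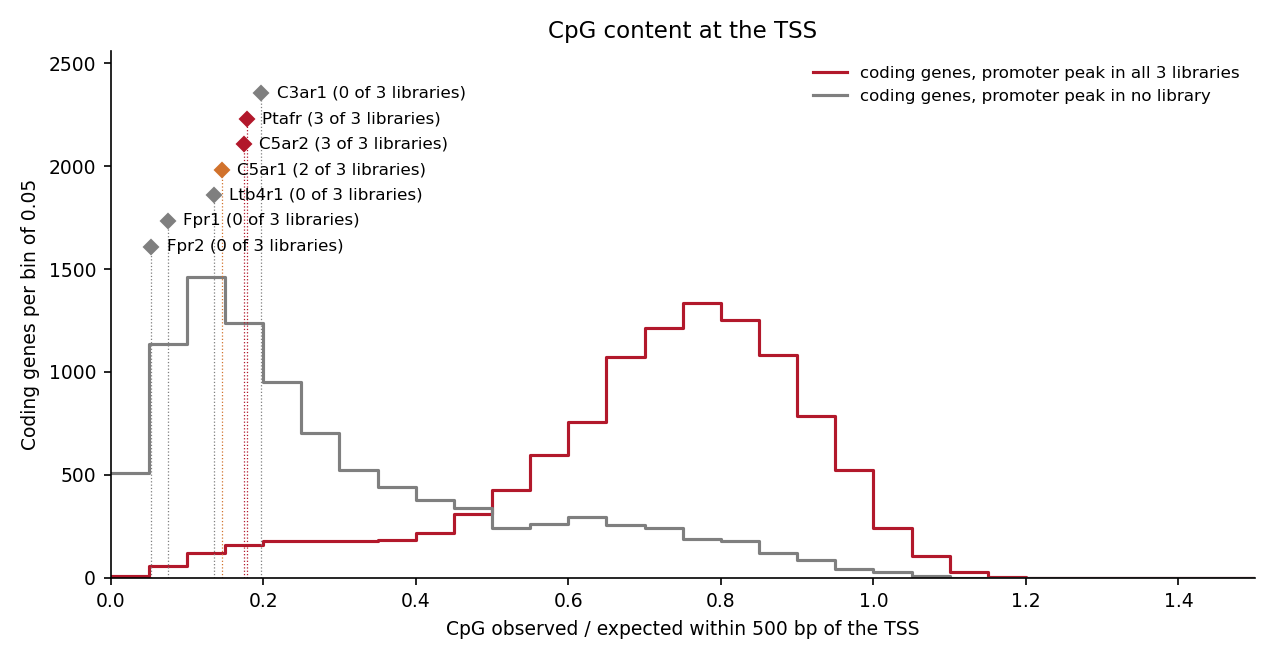
Number of protein-coding genes (vertical axis) in bins of the CpG observed over expected ratio within 500 bp of the TSS (horizontal axis), for genes with a promoter peak in all 3 libraries and in no library; diamonds place the 7 receptor genes, with the number of libraries in which each had a promoter peak, and their heights on the page carry no value. All 7 lie at ratios up to 0.198, where most genes had no promoter peak.

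Most start sites had no peak, but the chromatin around them did. The 7 receptor genes had a mean of 8.86, 8.14 and 7.71 distal peaks in replicates 1, 2 and 4 (mean 8.24 ± 0.577, SD, n = 3 libraries), against 2.69, 2.05 and 2.47 over all protein-coding genes. A distal peak lies within 50 kb of the most upstream coding TSS and outside the promoter window of every protein-coding gene. The median of the gene means was 8.67 for the receptor genes, 1.67 for all protein-coding genes, 0.333 for genes with no promoter peak in any library, and 0.667 for the 3482 other CpG-poor genes. The 8.67 is the value of Ltb4r1, whose counts varied most between libraries (11, 11 and 4 in replicates 1, 2 and 4). Genes are unevenly packed along chromosomes and neighbours share windows, so these counts are not independent, and no test was made.

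With the longer peak list and the 50 kb window, C3ar1 had the most distal peaks, with 12, 12 and 10 in replicates 1, 2 and 4 (11.3 ± 1.15), more than 98.4% of all genes. C5ar1 had 10, 8 and 10 (9.33 ± 1.15), Ptafr 10, 8 and 9 (9 ± 1) and Ltb4r1 11, 11 and 4 (8.67 ± 4.04). C5ar2 had 7, 6 and 7 (6.67 ± 0.577), and Fpr1 and Fpr2 had the same 6, 6 and 7 (6.33 ± 0.577), still more than 90.1% of all genes. The counts of C3ar1 and C5ar1 met at 10. C5ar1, Ptafr and Ltb4r1 did not differ beyond their spread, nor did C5ar2 and the formyl peptide receptors; only Ltb4r1 varied widely between libraries. The rank of C3ar1 depended on these settings. With the shorter peak list C3ar1 and C5ar1 both had a mean of 7.67, and with the taller 50% of peaks C3ar1 had 6, below C5ar1 at 6.67 and Ptafr at 6.33. Within 25 kb C3ar1 had 5, below Ltb4r1 at 6 and Fpr2 at 5.33, and within 100 kb it had 17, below C5ar2 at 23.3 and C5ar1 at 22.3.

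**Figure D3:**
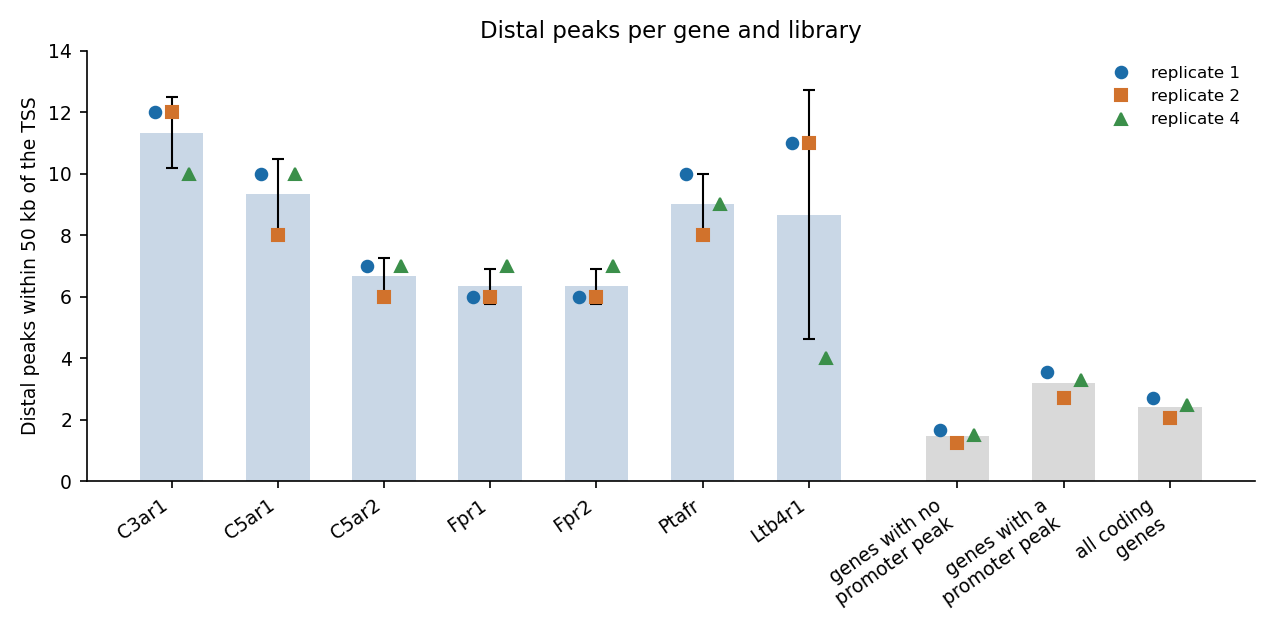
Distal peaks within 50 kb of the TSS of each receptor gene (bar, mean; error bar, SD; points, the 3 libraries) and, on the right, the mean per gene over genes with no promoter peak, genes with a promoter peak in all 3 libraries and all protein-coding genes (points, the 3 libraries). Each receptor gene has more distal peaks than the gene averages in every library, and Ltb4r1 has 11 in replicates 1 and 2 but 4 in replicate 4.

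Merged over libraries, the distal peaks of the 7 genes formed 56 distinct regions, of which 34 had a peak in all 3 libraries, 9 in 2 and 13 in 1. Merged regions that reached a promoter window in any library were not counted. The peak counts per library given above can therefore exceed the number of regions with a peak in that library. Of all 63420 merged regions of the genome, 54.3% had a peak in all 3. By the annotation, 28 of the 56 lay between genes, 21 in introns, 5 in coding exons and 2 in exons of Gm5112, a gene record of the annotation class TEC, whose coding status is not settled. A receptor gene owned the nearest coding TSS of 17 regions, 11 of them shared by all 3 libraries; the others lie closer to another gene, and the data do not tie a region to the gene it acts on.

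**Figure D4:**
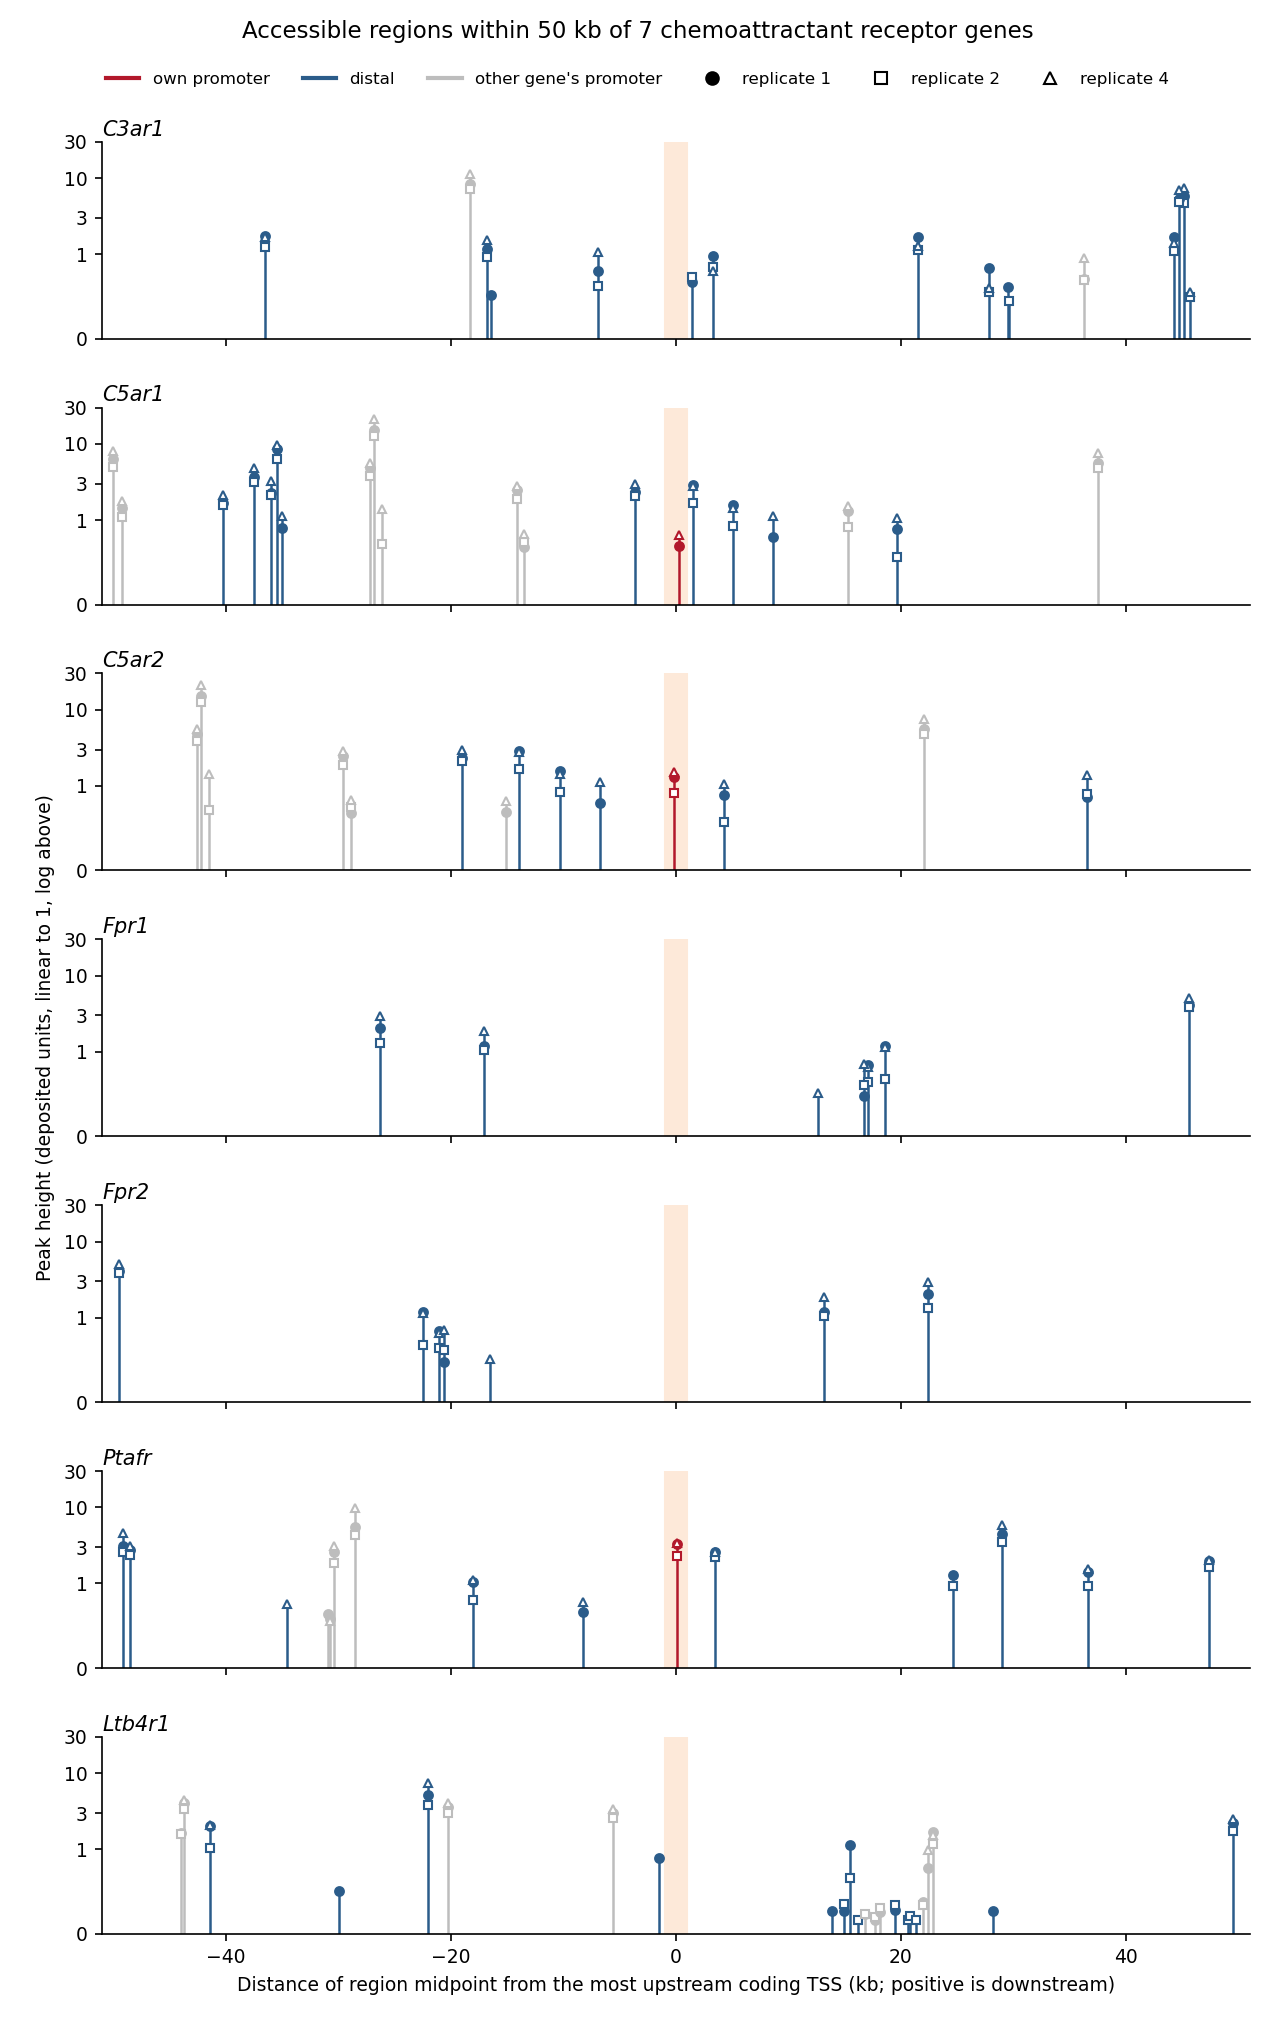
Height of each merged region (vertical axis, deposited units, linear up to 1 and logarithmic above) against its distance from the most upstream coding TSS (horizontal axis, kb, positive downstream), with 1 symbol per library and colours for the gene's own promoter, distal regions and promoters of other genes; shading marks 1 kb either side of the TSS. Tall distal regions stand 45.1 kb downstream of C3ar1, 35.5 kb upstream of C5ar1 and 29.0 kb downstream of Ptafr, and the stretch around the Fpr1 and Fpr2 start sites is empty.

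Among the complement receptors, C3ar1 (chromosome 6, minus strand, TSS at 122856161) was accessible inside the gene but not at its start. An intronic region at chr6:122852761-122853014, 3.15 kb downstream of the TSS, had heights of 0.973, 0.851 and 0.805 in replicates 1, 2 and 4. A second intronic region at chr6:122854588-122854840, 1.32 kb from the TSS, had 0.668 in replicate 1 and 0.727 in replicate 2 and was not called in replicate 4. Another region, 6.76 kb upstream at chr6:122862925-122863164, had 0.800, 0.621 and 1.05. These 3 are the only distal regions of the window with C3ar1 as nearest gene, were singled out after their values were seen, and all were low; the intronic sequence printed above held no footprint common to the 3 libraries.

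The tallest distal regions of the C3ar1 window lay at its far end. The region at chr6:122810841-122811200 reached 5.80, 4.65 and 7.41 in replicates 1, 2 and 4 (mean 5.95 ± 1.39), and its neighbour at chr6:122811341-122811560 reached 5.30, 4.86 and 7.02. Both were nearer to Foxj2, a forkhead transcription factor gene, than to C3ar1. The next shared regions by height averaged 1.55 ± 0.286 at chr6:122892541-122892720, 1.38 ± 0.284 at chr6:122811781-122812040 and 1.37 ± 0.274 in a Foxj2 intron at chr6:122834481-122834700. That last region carried a shared footprint holding the CTCF core pattern CCANNAGGG at chr6:122834584-122834592; CTCF is the factor that anchors chromatin loops. The window also held the promoter of Necap1, a clathrin adaptor gene, at 8.45, 7.29 and 11.2, taller than any of the distal regions.

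C5ar1 and C5ar2 lie side by side on the minus strand of chromosome 7, with start sites 15.4 kb apart, so 5 distal regions were counted for both, that is 50% of the 10 of C5ar1 and 83.3% of the 6 of C5ar2. The strongest signal within either gene was not at a promoter. An intronic region of C5ar1 at chr7:16257861-16258240, 1.098 kb from its nearer TSS, reached 2.87, 1.67 and 2.77 in replicates 1, 2 and 4 (mean 2.44 ± 0.668). It was taller than the C5ar1 promoter peak in replicates 1 and 4, where there was one, its lowest FDR was 1.61e-16, 4.10e-06 and 9.40e-16, and it lay just beyond the 1 kb window. A region 3.56 kb upstream of C5ar1, at chr7:16263101-16263280, was of similar height, at 2.36, 2.09 and 2.97 (mean 2.47 ± 0.450). These 2 regions did not differ beyond their spread.

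Weaker regions lay in other introns of the pair. In C5ar1, chr7:16254281-16254660 had heights of 1.57, 0.931 and 1.45 in replicates 1, 2 and 4. In C5ar2, chr7:16239670-16240034 had 0.891, 0.567 and 1.06. A further C5ar1 intronic region, chr7:16250821-16251040, was called in replicates 1 and 4 only. Another region of the C5ar2 window, in an intron of the helicase gene Dhx34, averaged 1.05 ± 0.280. The remaining tall regions of the C5ar1 window formed a group 35.5 to 37.5 kb upstream: chr7:16294881-16295100 reached 8.59, 6.39 and 9.78 (mean 8.25 ± 1.72), the tallest distal region of all 7 genes, and its neighbours averaged 3.88 ± 0.838 at chr7:16296881-16297100 and 2.56 ± 0.640 at chr7:16295381-16295700. All 3 were nearest to Ccdc9, which encodes a coiled-coil protein and whose own promoter held a peak of 15.1, 12.7 and 21.1.

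The sequences of the C5ar1 and C5ar2 regions were searched on both strands for short patterns of factors active in myeloid cells. The shared footprint of the C5ar1 intron, TTTCCGTTTCCT, covered the interferon regulatory factor pattern GAAANNGAA, read on the minus strand, at chr7:16258003-16258011. The shared footprint of the C5ar2 promoter overlapped a match to the C/EBP pattern TTGCNNAA at chr7:16244313-16244320, also on the minus strand. The footprint upstream of C5ar1 matched no pattern of the first list but did match a wider CTCF core, CCANNAGNG, that was added after the sequences had been seen. A match describes letters under a footprint and does not identify the bound protein.

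The formyl peptide receptors had the emptiest start sites of the group. Fpr1 (minus strand, TSS at 17883940) and Fpr2 (plus strand, first TSS at 17887824) stand back to back on chromosome 17, with start sites 3.88 kb apart. The peak nearest to Fpr1 lay 16.7, 16.6 and 12.6 kb away in replicates 1, 2 and 4, and the peak nearest to Fpr2 lay 13.0 kb away in each. Among genes without a promoter peak, 31.0% and 31.7% had a peak nearer than the smallest of these distances for Fpr1 and Fpr2. For C3ar1 and Ltb4r1 only 1.46% and 1.90% did, their smallest distances being 1.32 and 1.42 kb. These smallest distances did not hold in every library. In replicates 1, 2 and 4 the nearest peak lay 1324, 1321 and 3256 bp from C3ar1 and 1422, 5542 and 5542 bp from Ltb4r1.

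All 7 distal regions of the Fpr1 window were also those of Fpr2, 6 of them shared by all 3 libraries, and no promoter peak of any other gene fell in either window. On the Fpr2 side, chr17:17910001-17910440 reached 2.03, 1.32 and 2.96 in replicates 1, 2 and 4 (mean 2.10 ± 0.821), and chr17:17900841-17901120 reached 1.18, 1.05 and 1.89 (mean 1.37 ± 0.456). Both lay in an intron annotated to Fpr3, a neighbouring receptor gene of the same family, with Fpr2 as the gene of the nearest coding TSS. On the Fpr1 side, chr17:17865261-17865500 averaged 1.01 ± 0.287 and chr17:17866681-17866940 averaged 0.765 ± 0.111. Both were nearer to the hyaluronan synthase gene Has1. The tallest region of the window, chr17:17838121-17838460, reached 4.11, 3.90 and 5.09 at its far edge, in an intron of the sperm gene Spaca6. The region downstream of Fpr2 printed above is rich in G and C, at 64.7%, against a median of 52.0% in 200 bp windows over all distal regions shared by 3 libraries, and its shared footprint matched none of the patterns.

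The lipid mediator receptors differed from each other. Around Ptafr (chromosome 4, plus strand), 7 of 10 distal regions were shared by all 3 libraries and 5 of the 10 had Ptafr as nearest gene, the most of any receptor. Counting only regions shared by all 3 libraries, Ptafr and C5ar1 each had 3 such regions. The tallest, chr4:132593001-132593220, stood 28.9 kb downstream of the TSS between genes and reached 4.48, 3.53 and 5.85 in replicates 1, 2 and 4 (mean 4.62 ± 1.17). It was taller than the Ptafr promoter peak in each library. An intronic region at chr4:132567441-132567740, 3.37 kb from the TSS, reached 2.58, 2.21 and 2.59 (mean 2.46 ± 0.217). It repeated closely between libraries.

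At the far upstream end of the Ptafr window, chr4:132514841-132515020 averaged 3.42 ± 1.07 and chr4:132515461-132515720 averaged 2.74 ± 0.384. Both were nearest to Sesn2, a stress-response gene. At the downstream end, chr4:132611341-132611660 averaged 1.88 ± 0.206 and was nearest to Eya3, a phosphatase and transcription cofactor gene. The Ptafr promoter footprint held the C/EBP pattern at chr4:132564187-132564194, and the intronic region held the STAT pattern TTCNNNGAA under a shared footprint at chr4:132567712-132567720. The footprint of the region downstream of Ptafr matched no pattern of the first list. It held the E-box CACGTG at chr4:132593112-132593117, a pattern added after the sequence had been seen.

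Ltb4r1 (chromosome 14, plus strand, TSS at 55765962) was the least stable between libraries. Of its 14 distal regions, 3 were shared by all libraries and none of those 3 had Ltb4r1 as nearest gene. The tallest, chr14:55743821-55744040, reached 5.17, 3.79 and 7.55 in replicates 1, 2 and 4 (mean 5.502 ± 1.90), in an intron of the dehydrogenase gene Dhrs1. The others averaged 2.17 ± 0.389 at chr14:55815321-55815580 and 1.72 ± 0.575 at chr14:55724421-55724740. The only region nearest to Ltb4r1, 1.42 kb upstream at chr14:55764381-55764540, had a height of 0.899 in replicate 1 and was not called in replicates 2 and 4.

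The libraries differed most at Ltb4r1 in a crowded stretch downstream, over the genes Adcy4, an adenylate cyclase, and Ripk3, a kinase of necroptosis. From chr14:55769057 to 55788865 there were 11 peaks in replicate 1, 14 in replicate 2 and 2 in replicate 4, of which 5, 7 and 0 counted as distal. Of all the peaks in the stretch, 8, 12 and 0 had a height under 0.4, in libraries where only 7.97%, 5.88% and 4.19% of all peaks are so low. Without peaks under 0.4, a limit chosen after these peaks were seen, Ltb4r1 had a mean of 5 distal peaks in place of 8.67. Next to it, a region at chr14:55760241-55760460 near the start of Ltb4r2, the low-affinity leukotriene B4 receptor gene, reached 2.99, 2.55 and 3.40 in all 3 libraries, but only the peak of replicate 1 reached into the 1 kb window of Ltb4r2. Its peaks in replicates 2 and 4 were therefore among the distal peaks of Ltb4r1, but the merged region was not among the 14 distal regions.

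Across the 36 shared regions of the receptor genes, 34 distal and 2 at promoters, 32 footprints were called in all 3 libraries, and 10 of them held or overlapped a pattern of the first list. The SP/KLF pattern was in 5 (15.6%), against 20.6% of the 42991 footprints shared in all such regions. C/EBP was in 2 (6.25% against 1.19%). The IRF, STAT and narrower CTCF patterns were in 1 each (3.125% against 0.547%, 0.470% and 4.11%). The share of all footprints with any of the patterns was not computed. Of the 34 distal regions, 15 had no shared footprint, against 41.5% of the 20741 distal regions shared by all 3 libraries. The C/EBP pattern TTGCNNAA was found in 5 of the 34 (14.7%) against 11.6% of all, the IRF pattern GAAANNGAA in 5 (14.7%) against 6.88%, and the AP-1 pattern TGANTCA in 5 (14.7%) against 10.5%. The SP/KLF pattern GGGCGG was found in 10 (29.4%) against 12.0%, the PU.1 pattern GAGGAAGT in 2 (5.88%) against 8.495%, and the narrower CTCF core in 1 (2.94%) against 11.6%. The RUNX pattern TGTGGTT was in 2 (5.88%) against 7.18%; the ETS pattern CCGGAAGT in 1 (2.94%) against 0.853%, the NF-kappaB pattern GGGANTTCC in 1 (2.94%) against 1.53% and the STAT pattern in 1 (2.94%) against 5.41%. The added wider CTCF core was in 5 (14.7%) against 27.8% and the E-box in 1 (2.94%) against 5.17%. All shares count both strands in windows of 200 bp at the region centre, and with 34 regions that sit close to one another no pattern was called particular to these genes. Both shared promoter regions, at C5ar2 and Ptafr, held the C/EBP pattern, against 5.68% of 13700 promoter regions. Those promoter regions had a median of 64.5% G and C in 200 bp windows. The whole regions at C5ar2 and Ptafr had 55.8% and 58.75%. The part of base composition was not tested, and with 2 regions the pattern was not called particular to them.

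Related receptors were read in the same way. Of 11 that could be matched, 1 had a promoter peak in every library, the leukotriene receptor gene Cysltr1 at 0.618, 0.408 and 0.606, and 7 had none in any. Over all protein-coding genes these shares were 50.5% and 44.1%. In the same family as Fpr1 and Fpr2, the vomeronasal formyl peptide receptor genes Fpr-rs3, Fpr-rs4 and Fpr-rs6 had no distal peak in any library and Fpr-rs7 had 1 in replicate 4 only, against the 6, 6 and 7 of Fpr1 and Fpr2. Fpr3 had the same 6, 6 and 7, because its most upstream coding transcript starts between the 2 annotated starts of Fpr2. Of the other related receptors, the chemerin receptor gene Cmklr1 had 10, 9 and 5 distal peaks and the prostaglandin D2 receptor gene Ptgdr2 had 8, 7 and 8. Ltb4r2 had 10, 10 and 3 in largely the same window as Ltb4r1.

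Genes for ligands and their enzymes, and genes that carry the signal, were counted last. Of 10 genes for ligands and their enzymes, 7 had a promoter peak in each library, against 50.5% of all protein-coding genes. Only Hc, which encodes complement C5, had none in any. Alox5ap, which encodes the protein that presents arachidonic acid to 5-lipoxygenase, had 11 distal peaks in every library, and Pla2g7, the PAF acetylhydrolase gene, had 9, 7 and 11. Of 20 signalling genes, 19 had a promoter peak in each library, against the same 50.5%. The exception, Plcb2, the phospholipase C gene, had one in replicates 1 and 4 only. The CpG content of the genes in these lists was not compared. Gnai2, an inhibitory G protein subunit gene, had a promoter height of 8.44, 6.07 and 10.6 and 16, 13 and 18 distal peaks. The median of the gene means of distal peaks was 8.67 for the 7 receptor genes, 1.33 for related receptors, 4.00 for ligand genes and 5.33 for signalling genes, 7.33 for the 10 monocyte markers and 4.33 for the 12 neutrophil markers, against 1.67 for all protein-coding genes. The 8.67 is the value of Ltb4r1, the gene least stable between libraries. Without peaks under 0.4, a limit chosen after the peaks were seen, Ltb4r1 had 5. The middle receptor value was then the 6.67 of C5ar2. The other lists were not recounted at that limit. The receptor genes thus had no promoter peak or one below the median height and a median of distal peaks near that of the monocyte markers, while nearly all the signalling genes had promoter peaks.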

How the data were processed

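The authors deposited, for each library, 2 peak lists, footprints and an FDR track on mm10, per the labels; the aligner, the caller and the way footprints were found are not stated there. The longer peak list was used; its height is a signal of cleavage density computed by the authors, whose scale and depth correction are not stated. The FDR is a p-value type quantity that the authors computed and listed under 0.05. Total reads per library are unknown, so no counting interval could be given. Genes came from GENCODE M21 (release 21), with 41438 coding TSSs, and sequence from the matching reference assembly. Peaks overlapping by at least 1 bp were merged, footprints extended by 5 bp for pattern matches, and percentiles taken within a library. Python 3.11.15, numpy 2.4.6, pandas 2.3.3, samtools 1.23.1 and matplotlib 3.10.9 were used, and interval code was tested on simulated intervals. Genes and lists were chosen with earlier results of these data known. All 7 genes are described, each with its promoter regions and its 5 tallest shared distal regions; of each related list, up to 4 genes without promoter peaks and the 2 with most distal peaks are named, Fpr3, Ltb4r2, Cysltr1 and Plcb2 being named after their values were seen. A gene that this rule would name is not reported here. Peak list, height, window, TSS, overlap, footprint and left-out libraries were varied.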

Additional observations from a re-analysis of the deposited data

How the results depend on the processing

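No paired analysis was possible because all libraries form 1 group. Set against 2 receptor genes with a promoter peak in all 3 libraries, 8.24 distal peaks per receptor gene, 34 shared distal regions and 50.5% of all genes, the shorter peak list gave 6.19 distal peaks and 46.9% of all genes, with the same 2 promoters. The taller 50% of peaks gave 1 promoter (Ptafr), 4.76 distal peaks, 22 shared regions and 44.0% of all genes. A promoter window of 500 bp gave 49.2% of all genes, and one of 2 kb gave 52.2% and 3 receptor promoters, since the C5ar1 intronic region then counts as promoter. Per library, the 2 kb window gave 5, 4 and 3 receptor promoters in replicates 1, 2 and 4, against 3, 2 and 3 at 1 kb. C3ar1 then had a promoter peak in replicates 1 and 2, and Ltb4r1 in replicate 1. The absence of any promoter peak at C3ar1 and Ltb4r1 thus depends on the window. A distal window of 25 kb gave 4.81 distal peaks and 16 shared regions, and one of 100 kb gave 14.4 distal peaks. Leaving out each library in turn gave 2 to 3 receptor promoters (3 without replicate 2, where C5ar1 joins), 7.93 to 8.5 distal peaks, 37 to 39 shared regions and 50.7% to 51.9% of all genes. Without peaks under 0.4, an alternative added after seeing the data, there were 7.71 distal peaks, and Ltb4r1 fell to 5. Shared footprints with a pattern numbered 9 to 10 under the other extensions and peak list, and 13 with the wider CTCF core. Without replicate 4 Ltb4r1 had 11.0 distal peaks. Depth is unknown, so a window without a peak shows no detectable opening at the depth of that library, not closed chromatin.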
